A study of Homo sapiens with 4 samples.

Results

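The genes described here are 10 regulators and feedback genes of the ATF4 stress response: ATF4, ATF3, ATF5, DDIT3, CEBPB, CEBPG, TRIB3, DDIT4, SESN2 and CHAC1. They are 10 of the 60671 Ensembl genes listed for each library, and all 10 reached 1 TPM in at least 1 library of each cell line. They were chosen by name because a longer list of ATF4 genes had been seen lower with DDX52 knockdown in 22RV1 cells and not in PC3 cells, so their changes are a description and no test was made of them. RNA-seq covered 22RV1 and PC3, both human prostate carcinoma lines. Each line carried, from a puromycin-selected pLKO.1 lentivirus, either a control shRNA (shCON) or a single shRNA against DDX52, a DEAD-box RNA helicase (shDDX52). There was 1 library for each of the 4 conditions, so no difference reported here has a replicate check or a p-value. The values are TPM, a transcript abundance corrected for length and library size, which can be compared between genes but keeps no sequencing depth.

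ATF4 is a basic leucine zipper (bZIP) factor whose mRNA is translated more when the initiation factor eIF2-alpha is phosphorylated, as happens when amino acids run short or unfolded protein builds up in the endoplasmic reticulum. It pairs with C/EBP factors and switches on genes for amino acid supply, and also genes that restrain growth or damp the response itself. Because its control is largely translational, the level of ATF4 mRNA is not a measure of ATF4 protein, which was not analysed here.

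DDX52 itself was 4.88 TPM (shCON) and 1.2 TPM (shDDX52) in 22RV1, and 9.2 TPM and 2.07 TPM in PC3, so it was lower with its shRNA in both lines, with log2 ratios, taken as log2((TPM shDDX52 + 1) / (TPM shCON + 1)), of −1.42 and −1.73. KLK3, the gene of prostate-specific antigen and a marker of 22RV1, was 6.84 and 4.51 TPM in the 22RV1 libraries. Both PC3 libraries listed KLK3 and KLK2 at 0, but 3 of the 7 markers of 22RV1 reached 1 TPM in each of them. The 7 summed to 44.4 and 38.8 TPM in PC3, shCON first. Most of this was HOXB13, at 39.9 and 34.1 TPM in PC3 and 89.9 and 104.7 TPM in 22RV1. The 6 PC3 markers summed to 993 and 996 TPM in PC3 and to 27.5 and 14.4 TPM in 22RV1, shCON first. Within PC3 the near-equal sums held opposite differences: S100A2, a calcium-binding protein, was 210.4 TPM under the control shRNA and 40.8 TPM under shDDX52, and VIM, the intermediate filament vimentin, was 12.6 and 66.7 TPM, while in 22RV1 it was 8.08 and 5.57 TPM. Nuclear rRNA genes held from 0.0872% to 3.13% of the TPM in a library, lower with shDDX52 in 22RV1 and higher in PC3. Mitochondrially encoded genes held from 8.10% to 13.0%. With TPM rescaled to nuclear protein-coding genes, which leaves out both, the median log2 ratio of the 10 genes was −0.54 in 22RV1 and 0.50 in PC3. Without this rescaling it was −0.55 and 0.38. Any other part of either in the values of the 10 genes was not tested.

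Promoter sequence was examined because ATF4 and C/EBP factors bind a shared composite element. RefSeq windows on GRCh38.p14, from 250 bases before to 50 bases after each start, were found for all 10 genes, 19 windows in all. The core of the element, TGATGNAA on either strand, occurred in windows of CHAC1, CEBPG and ATF3. This was 3 of the 19 windows, against 3.62% of the 35116 windows of all genes. Windows were found for 22 of the 28 amino acid enzyme, transporter and tRNA synthetase genes listed as ATF4 targets. Of these 22 genes, 11 had a window with the element, against 1217 of the 27305 genes with windows. The list was written by hand from genes already known as ATF4 targets, so this share is no separate evidence. The cAMP response element TGACGTCA occurred in 0 of the 19 windows, against 1.85% of all. The E-box CACGTG, the letters bound by MYC, a factor this study follows, occurred only in the windows of ATF4 among the 10 genes, against 7.26% of all windows. The matches are shown 5′ to 3′ on the plus strand with the matched letters in capitals, and each is a match of letters and not evidence of binding.
CHAC1, chr15:40953251-40953280: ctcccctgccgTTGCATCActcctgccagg
CEBPG, chr19:33374013-33374112: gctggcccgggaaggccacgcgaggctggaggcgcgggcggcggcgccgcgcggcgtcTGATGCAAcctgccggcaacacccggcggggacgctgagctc
ATF3, chr1:212565170-212565269: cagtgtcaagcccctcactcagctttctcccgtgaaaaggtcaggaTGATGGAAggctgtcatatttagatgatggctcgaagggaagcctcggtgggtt
ATF4, chr22:39520466-39520495: gaggagacggtCACGTGgtcgcggcggaag
The match lies 209 bases before the start in CHAC1, 42 before the second of the annotated starts in CEBPG, 191 in ATF3 and 82 in ATF4, counted to its first base. In GENCODE 29 the ATF3 stretch is outside the annotated gene and the CEBPG stretch is intronic in 1 of 2 transcripts. The CHAC1 and ATF4 stretches lie in an exon of transcripts that start further upstream. No match within a window says only that these letters are absent from it.

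With shDDX52, 9 of the 10 genes were lower in 22RV1 and 1 was higher, whereas in PC3 2 were lower, 7 were higher and 1 was equal. Of the genes that reached 1 TPM in a library of the line, 58.8% were lower and 40.9% higher in 22RV1, and 53.5% were lower and 46.3% higher in PC3. Changes are given as the log2 ratio, on which changes of weakly expressed genes come out too small. In these bulk samples fewer cells expressing a gene and less RNA per cell cannot be told apart. The median log2 ratio over the 10 genes was −0.55 in 22RV1 and 0.38 in PC3, and over all genes it was −0.076 and −0.036. The members were chosen on this contrast, so nothing is read from these shares.

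**Figure D1:**
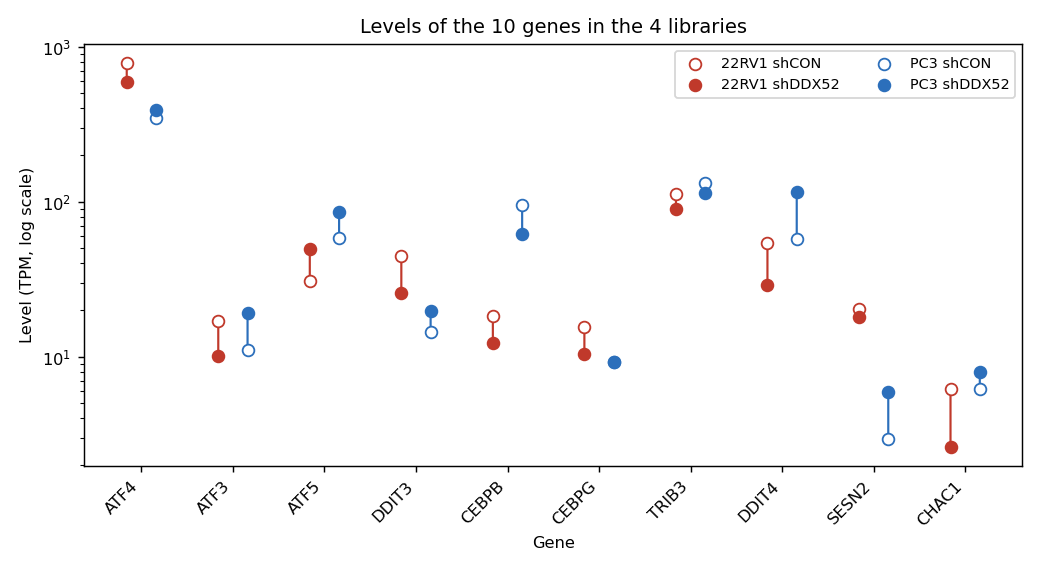
Level of each of the 10 genes in TPM on a log axis, with shCON as open and shDDX52 as filled circles, 22RV1 in red and PC3 in blue, and 1 library per circle. The line joins the libraries of a cell line; 22RV1 points lie lower with shDDX52 for every gene but ATF5, and the CEBPG points of PC3 coincide at 9.17 TPM.

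ATF4 itself was the most abundant of the 10 in all 4 libraries. In 22RV1 it was 783 TPM (shCON) and 593 TPM (shDDX52), and in PC3 345 TPM and 392.2 TPM. It lies at chr22:39519695-39522685 (GENCODE 29 on GRCh38, as for the positions that follow). Its log2 ratio was −0.40 in 22RV1 and 0.18 in PC3, so it was lower in the first line and slightly higher in the second. ATF4 made up 71.1% of the summed TPM of the 10 genes in 22RV1 shCON and 70.6% in 22RV1 shDDX52. In PC3 the share was 47.2% in both libraries. This share does not depend on how a library was scaled. The 4 processed pseudogenes ATF4P1 to ATF4P4 were listed at no more than 0.07 TPM in any library.

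ATF3, a bZIP factor that can act as a repressor and is induced by many stresses, lies at chr1:212565334-212620777. It was 16.9 TPM (shCON) and 10.1 TPM (shDDX52) in 22RV1, and 11.0 TPM and 19.1 TPM in PC3. The lines exchanged places, with 22RV1 the higher in control cells and PC3 the higher after knockdown. The log2 ratios were −0.68 and 0.74. DDIT3 (chr12:57516588-57521737), which encodes CHOP, the factor linked to cell death under unresolved stress, was 44.9 TPM and 25.9 TPM in the 22RV1 libraries and 14.3 TPM and 19.8 TPM in the PC3 libraries, shCON first. It was lower in 22RV1 and higher in PC3, with log2 ratios of −0.77 and 0.44. DDIT3 overlaps MARS1, a tRNA synthetase gene on the opposite strand, (MARS in GENCODE 29) over 355 of its 1307 exonic bases. MARS1 had the same directions, at 310.4 and 231 TPM in 22RV1 and 141 and 249.7 TPM in PC3. Whether the counting used strand is not given in the sources used here, and the part of reads from MARS1 in the DDIT3 values was not tested.

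ATF5, a close relative of ATF4 known for its role in the mitochondrial stress response, was the only gene of the 10 higher in both lines. At chr19:49928702-49933935, it was 30.7 TPM (shCON) and 49.4 TPM (shDDX52) in 22RV1, and 58.0 TPM and 85.4 TPM in PC3. The log2 ratios were 0.67 and 0.55. Within the same libraries ATF5 was 3.92% (shCON) and 8.32% (shDDX52) of the ATF4 level in 22RV1, and 16.8% and 21.8% in PC3. Of its 2954 exonic bases, 626 are shared with NUP62 on the opposite strand. NUP62 was 81.4 and 89.9 TPM in 22RV1 and 87.1 and 102.8 TPM in PC3, shCON first, so it was also higher in both lines, and its part in the ATF5 values was not tested.

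CEBPB and CEBPG encode C/EBP factors that pair with ATF4 at the composite element. CEBPB (chr20:50190734-50192689) was 18.3 TPM (shCON) and 12.2 TPM (shDDX52) in 22RV1, and 94.6 TPM and 61.8 TPM in PC3. Its TPM with shDDX52 was 66.4% of the control in 22RV1 and 65.3% in PC3, and its log2 ratios were −0.55 and −0.61. CEBPG (chr19:33373330-33382686) was 15.6 TPM and 10.3 TPM in 22RV1, a log2 ratio of −0.55, and 9.17 TPM in both PC3 libraries. So CEBPB was lower in both lines to a like degree, and CEBPG was lower in 22RV1 alone. CEBPB-AS1, on the opposite strand of CEBPB, was listed at no more than 0.37 TPM in any library.

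The feedback and effector genes followed. TRIB3, a pseudokinase that binds ATF4 and restrains it, lies at chr20:362835-397559. Its level was 111 TPM (shCON) and 89.9 TPM (shDDX52) in 22RV1, and 132 TPM and 114 TPM in PC3. It was the second most abundant of the 10 in every library but PC3 shDDX52, where DDIT4 lay between it and ATF4. It was somewhat lower with shDDX52 in both lines, with log2 ratios of −0.31 and −0.20. DDIT4, also called REDD1, which inhibits mTORC1, lies at chr10:72273920-72276036. Its level was 53.9 TPM (shCON) and 28.8 TPM (shDDX52) in 22RV1, and 57.4 TPM and 115 TPM in PC3. The control levels lay within 1.06-fold of each other, and after knockdown PC3 was 4.0-fold above 22RV1. Its log2 ratios of −0.88 and 0.99 gave the largest difference between the lines among the 10 genes, −1.88. DDIT4-AS1, which overlaps 847 of its exonic bases on the opposite strand, was listed at 0 in all 4 libraries.

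SESN2, a sestrin that restrains mTORC1 when leucine is scarce, lies at chr1:28259527-28282491. It was 20.4 TPM (shCON) and 17.9 TPM (shDDX52) in 22RV1, and 2.93 TPM and 5.91 TPM in PC3. The PC3 level with shDDX52 was 202% of its control, a log2 ratio of 0.81, and the 22RV1 ratio was −0.18. CHAC1, an enzyme that degrades glutathione and a target of the ATF4, ATF3 and CHOP cascade, lies at chr15:40952962-40956519. It was 6.16 TPM (shCON) and 2.61 TPM (shDDX52) in 22RV1, and 6.15 TPM and 7.92 TPM in PC3. The control levels were nearly equal, and the 22RV1 level with shDDX52 was 42.4% of its control, the lowest such share of the 10 genes. The log2 ratios were −0.99 and 0.32. CHAC1 in 22RV1 shDDX52 and SESN2 in PC3 shCON were the lowest levels among the 10 genes, and the depth behind them is unknown.

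**Figure D2:**
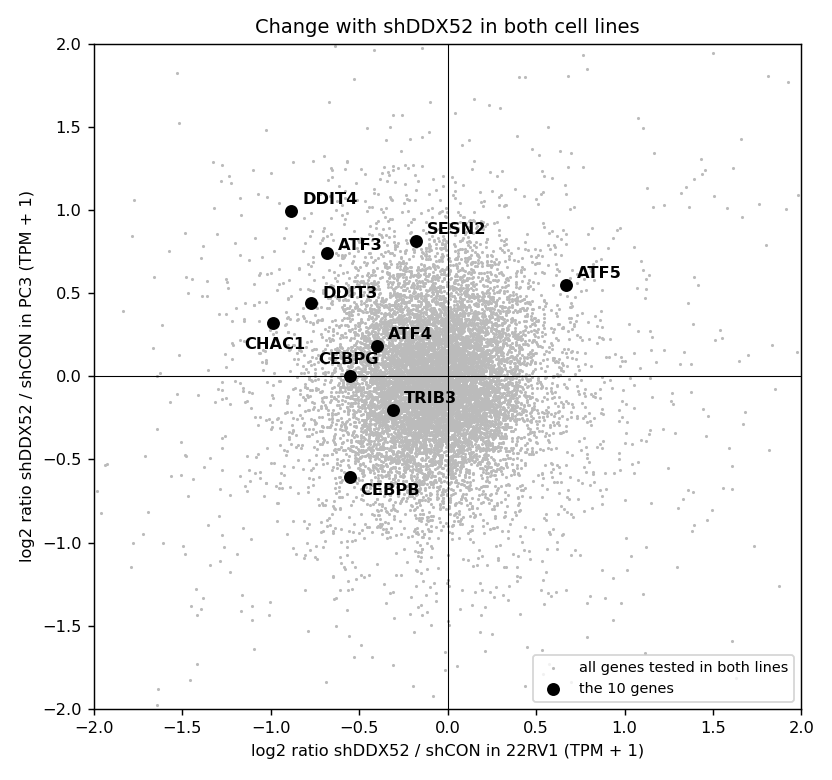
Log2 ratio of shDDX52 to shCON in 22RV1 (horizontal) and in PC3 (vertical) for the 10 genes in black and for 12175 genes with at least 1 TPM in both lines in grey, of which 127 lie outside the plotted range. DDIT4, ATF3, DDIT3, CHAC1, SESN2 and ATF4 lie at upper left, ATF5 at upper right, and CEBPB and TRIB3 at lower left.

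In size, 0 of the 10 genes reached a 2-fold change on the log2 ratio scale in either direction in either line. Over all genes 2.86% were at least 2-fold lower and 2.24% higher in 22RV1, and 3.44% lower and 2.86% higher in PC3. CHAC1 in 22RV1 and DDIT4 in PC3 lay just short of that limit, and without the added 1 TPM CHAC1 was 2.36-fold lower in 22RV1, and DDIT4 and SESN2 in PC3 were 2.01-fold and 2.02-fold of control. At a 1.5-fold limit, chosen after the values were seen, 4 genes were lower in 22RV1 (ATF3, DDIT3, DDIT4 and CHAC1), where 8.44% of all genes were, and ATF5 was higher, as were 5.60% of all genes. In PC3 3 genes were at least 1.5-fold higher (ATF3, DDIT4 and SESN2), against 8.91% of all genes, and CEBPB was lower, against 9.84%. For orientation, the log2 ratio of DDIT4 in 22RV1 was under those of all but 0.520% of 2887 protein-coding genes of similar level, within a 2-fold range of mean TPM, and in PC3 above those of 99.3% of 1984 such genes. ATF5 lay above 99.0% of such genes in 22RV1 and 96.6% in PC3. SESN2 in 22RV1 and TRIB3 in PC3 lay well inside, at percentiles 35.9 and 34.3. These percentiles describe where single genes lie and are not a test.

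Lower in 22RV1 and higher in PC3 were 6 of the 10 genes, ATF4, ATF3, DDIT3, DDIT4, SESN2 and CHAC1, against 27.4% of the 12175 genes tested in both lines. The difference between the log2 ratios was below 0 for 8 genes and above 0 for 2, against 53.5% and 46.5% of all genes. At 1.5-fold it was lower for 5 genes and higher for 0, against 14.3% and 9.73%. At 2-fold it was lower for ATF3, DDIT3, DDIT4 and CHAC1 and higher for 0 genes, against 4.5% and 3.1%. This difference, 22RV1 minus PC3, was −0.58 for ATF4, −1.43 for ATF3, −1.21 for DDIT3, −0.99 for SESN2 and −1.31 for CHAC1. For TRIB3 it was −0.11, for CEBPB 0.052 and for ATF5 0.12, so these 3 genes had much the same change in both lines. An interaction cannot be tested with 1 library per condition, and a difference between the cell lines cannot be told apart from a difference between single cultures or libraries.

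The control levels are the denominators of the ratios on which the genes were chosen, so they too are a description. In control cells 6 of the 10 were lower in PC3 than in 22RV1 and 4 were higher, with a median log2 ratio of PC3 to 22RV1 of −0.29, which was −0.0020 without ATF4 and ranged from −0.57 to −0.0020 when 1 gene at a time was left out. The median of all genes was −0.067, and 52.3% of them were lower and 47.6% higher in PC3. CHAC1 counts among the lower genes with a log2 ratio of −0.0020. At 1.5-fold 4 genes were lower and 2 higher, against 32.2% and 29.3%. At least 2-fold lower in PC3 were ATF4, DDIT3 and SESN2, 3 of 10 against 21.3% of all genes, and CEBPB was at least 2-fold higher, against 19.9%. ATF4 was 2.27-fold, DDIT3 3.14-fold and SESN2 6.97-fold higher in 22RV1 shCON than in PC3 shCON. CEBPB was 5.17-fold and ATF5 1.89-fold higher in PC3. The 2 tables hold the same unit but were deposited separately, and these folds rest on 1 library each.

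The order of the levels also differed between the lines. In 22RV1 shCON the 10 genes ran from ATF4 through TRIB3, DDIT4, DDIT3, ATF5, SESN2, CEBPB, ATF3 and CEBPG to CHAC1. In PC3 shCON the order was ATF4, TRIB3, CEBPB, ATF5, DDIT4, DDIT3, ATF3, CEBPG, CHAC1 and SESN2. CEBPB was 2.34% of the ATF4 level in 22RV1 shCON and 27.4% in PC3 shCON, so CEBPB mRNA was far more abundant relative to ATF4 mRNA in PC3. For CEBPG the shares were 1.99% and 2.66%. With shDDX52 ATF5 moved from rank 5 to rank 3 in 22RV1, and DDIT4 moved from rank 5 to rank 2 in PC3. Neighbours such as CEBPB and ATF3 in 22RV1, or TRIB3 and DDIT4 in PC3 shDDX52, lay close together, and without replicates their order has no measured error.

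**Figure D3:**
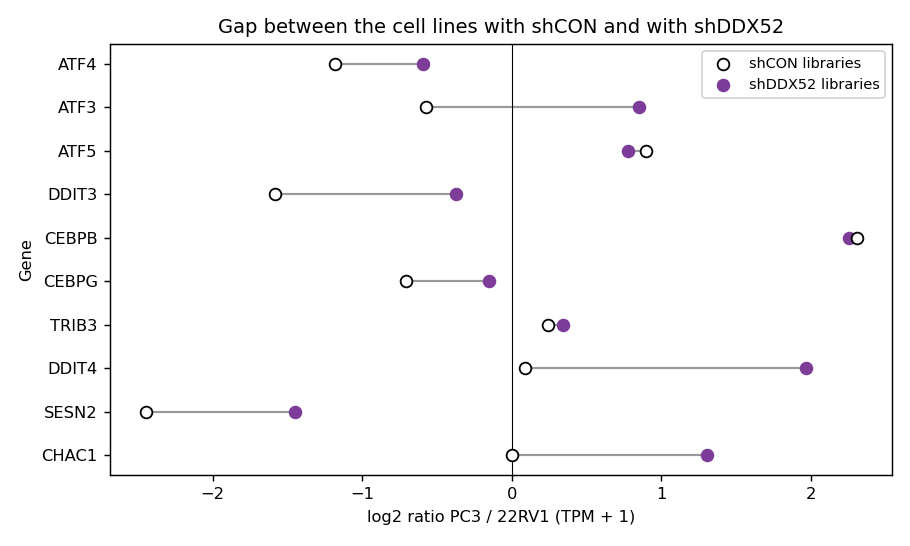
Log2 ratio of PC3 to 22RV1 (TPM + 1) for each of the 10 genes in the shCON libraries (open circles) and in the shDDX52 libraries (filled circles), with 1 library per line and condition. The gap narrows for ATF4, DDIT3, CEBPG and SESN2, opens for DDIT4 and CHAC1, and changes sign for ATF3.

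The gap between the cell lines was narrower with shDDX52 for 6 of the 10 genes, against 48.8% of all genes tested in both lines. ATF4 was 2.27-fold higher in 22RV1 with shCON and 1.51-fold higher with shDDX52. For DDIT3 the corresponding folds were 3.14 and 1.31, and for SESN2 6.97 and 3.03. DDIT4 and CHAC1 had the other pattern, near equality with shCON and levels 4.0-fold and 3.03-fold higher in PC3 with shDDX52. The summed TPM of the 10 genes was 1101 and 840 in 22RV1 and 730 and 831 in PC3, shCON first, and most of the 22RV1 sum was ATF4. Without ATF4 the sums were 318 and 247 TPM in 22RV1 and 385 and 439 TPM in PC3, so the lines lay closer together after knockdown in the sum of all 10 genes and further apart in that of the other 9. The control values enter both the gap and the change, so these are not independent measurements.

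Genes on either side of ATF4 in the pathway were taken from lists written with earlier results of these data known. Upstream of ATF4 the list held 18 genes, the eIF2-alpha kinases, subunits of eIF2, eIF2B and the eIF2-alpha phosphatases, and the kinase regulators GCN1, DELE1, OMA1 and IMPACT. Of these, 13 were lower and 5 higher in 22RV1, with a median log2 ratio of −0.12. In PC3 10 were lower and 8 higher, with a median of −0.018. None of the 18 reached a 1.5-fold change in either line. Over all genes 8.44% were at least 1.5-fold lower and 5.60% higher in 22RV1, and 9.84% and 8.91% in PC3. Without a limit, 58.8% of all genes were lower and 40.9% higher in 22RV1, and 53.5% and 46.3% in PC3. These last shares stand beside the counts of every list below. EIF2S1, the eIF2-alpha subunit, was 124 and 85.8 TPM in 22RV1 and 338 and 307.8 TPM in PC3, shCON first. EIF2AK2, the kinase PKR, was 5.80 and 5.70 TPM in 22RV1 and 9.78 and 13.0 TPM in PC3. EIF2S2 had the lowest log2 ratio of the list in PC3 (−0.50) and EIF2B5 the highest in 22RV1 (0.24).

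Of the 28 amino acid enzymes, transporters and tRNA synthetases known as ATF4 targets, 26 were lower and 2 higher in 22RV1, with a median of −0.44. In PC3 26 were tested, 5 were lower and 21 higher, with a median of 0.12. ASNS, asparagine synthetase, was 161 TPM (shCON) and 62.4 TPM (shDDX52) in 22RV1, and 20.9 TPM and 21.5 TPM in PC3. Its log2 ratios were −1.36 and 0.039. SLC7A1, an importer of cationic amino acids, was 33.0 and 31.0 TPM in 22RV1 and 11.2 and 20.8 TPM in PC3, so the change lay in the other line. EPRS1, a tRNA synthetase, was lower in both lines, with log2 ratios of −0.43 and −0.66, and SLC38A2, an amino acid transporter, was higher in both, at 0.17 and 0.16. A shared direction between ATF4 and its targets in a library pair uses the same 2 libraries for each gene. The members were chosen because a list of ATF4 genes had shown this contrast between the lines. The directions of this and the next target list therefore restate that choice and are no separate support.

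Of 23 other known targets of ATF4 or CHOP, 17 of the 21 tested were lower in 22RV1, with a median of −0.31, and 15 of 21 were higher in PC3, with a median of 0.22. GDF15, a secreted stress cytokine, went against the second direction, at 98.5 and 43.5 TPM in 22RV1 and 43.6 and 16.9 TPM in PC3, shCON first. It had the lowest log2 ratio of this list in both lines among genes that reached 5 TPM. NUPR1, another stress-induced target, was named after its values were seen and was likewise lower in both, with log2 ratios of −0.81 and −0.87. STC2, a secreted glycoprotein, was 163 TPM in PC3 shCON and 313 TPM in PC3 shDDX52, and 12.2 and 9.47 TPM in 22RV1. BBC3, the apoptosis gene PUMA, was 23.9 and 26.1 TPM in 22RV1 and 4.69 and 4.81 TPM in PC3.

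The IRE1 and ATF6 arms of the unfolded protein response run beside the ATF4 arm. In 22RV1 25 of their 26 genes were lower and 1 was higher, with a median of −0.50. In PC3 17 were lower and 9 higher, with a median of −0.14. HERPUD1, an endoplasmic reticulum protein of the degradation pathway that is also induced by ATF4, was 164 and 76.6 TPM in 22RV1 and 29.8 and 44.2 TPM in PC3. SEL1L, of the same pathway, had the highest log2 ratio in PC3 (0.74) and DERL2 the lowest there (−0.56). ATF6B, a relative of ATF6, was the gene higher in 22RV1, at 0.11. So in 22RV1 the median of this combined list was below 0, as was that of the 10 genes, whereas in PC3 the median of the 10 genes was above 0 and that of the IRE1 and ATF6 genes below it.

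**Figure D4:**
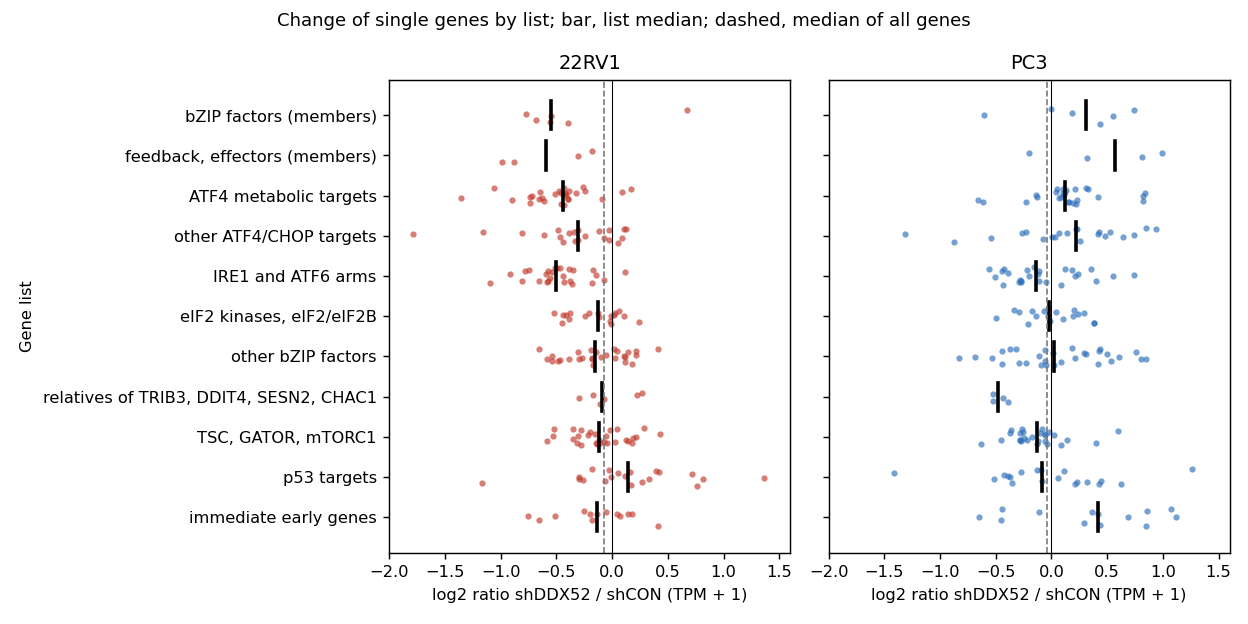
Log2 ratio of shDDX52 to shCON for each tested gene of the pathway lists (points, spread vertically for visibility) in 22RV1 and in PC3, with the list median as a black bar and the median of all genes as a dashed line. The medians of the member and ATF4 target lists lie left of 0 in 22RV1 (−0.60 to −0.31) and right of 0 in PC3 (0.12 to 0.57), and the median of the IRE1 and ATF6 genes lies left of 0 in both. The members were chosen because a list of ATF4 genes had shown this contrast.

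Other bZIP factors, which can pair with or compete with the members, showed no common direction. Of 28 tested in 22RV1, 17 were lower and 11 higher, against 58.8% and 40.9% of all genes, with a median of −0.16. Of 30 tested in PC3, 14 were lower and 16 higher, against 53.5% and 46.3%, with a median of 0.022. JUN, a subunit of AP-1 that can pair with ATF3, was 15.5 and 9.49 TPM in 22RV1 and 21.7 and 29.7 TPM in PC3, the directions seen for ATF3. FOSL1, another AP-1 subunit, was 226 TPM (shCON) and 408 TPM (shDDX52) in PC3 and under 1 TPM in both 22RV1 libraries. DBP, a bZIP factor of the circadian clock, was lower in both lines, with log2 ratios of −0.49 and −0.83, and TEF, of the same family, had ratios of 0.22 and 0.31.

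The closest relatives of the feedback genes were listed as well. These 6 genes are TRIB1 and TRIB2, DDIT4L, SESN1 and SESN3, and CHAC2. In 22RV1 4 were lower and 2 higher, with a median of −0.090, and in PC3 the 4 that were tested were all lower, with a median of −0.48. CHAC2, a glutathione-degrading enzyme related to CHAC1, was 4.46 and 5.56 TPM in 22RV1 and 10.8 and 7.21 TPM in PC3, opposite to CHAC1 in both lines. TRIB1 was higher in 22RV1 and lower in PC3, with log2 ratios of 0.22 and −0.44, and TRIB2 was lower in both, with log2 ratios of −0.17 and −0.52.

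DDIT4 and SESN2 act on mTORC1 through the TSC and GATOR complexes. Of the 29 genes of this branch 20 were lower and 9 higher in 22RV1, with a median of −0.12, and 22 of 27 were lower in PC3, with a median of −0.13. CASTOR1, an arginine sensor, had the highest log2 ratio in both lines among genes that reached 5 TPM, 0.43 and 0.60. RRAGD, a Rag GTPase, was 14.5 and 9.73 TPM in 22RV1 and no more than 0.12 TPM in PC3. RPS6KB1, the S6 kinase downstream of mTORC1, was lower in both, with log2 ratios of −0.52 and −0.63.

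Some of the 10 genes also respond to p53 or to growth factor signals. Among 20 p53 targets, 12 were higher and 8 lower in 22RV1, with a median of 0.14, and 9 of 19 were higher in PC3, with a median of −0.081. CDKN1A, the cell cycle inhibitor p21, was 109 and 186 TPM in 22RV1 and 31.2 and 76.3 TPM in PC3, higher in both lines. BTG2, an antiproliferative gene, was 12.4 and 33.4 TPM in 22RV1 and no more than 1.31 TPM in PC3. GADD45A, a growth arrest gene, had log2 ratios of −0.26 and 0.11, and TIGAR, a regulator of glycolysis, ratios of −1.17 and −1.41. Activity of p53 was not measured in either line, so the values of its targets are not a readout of it. Of 13 immediate early genes tested in each line, 8 were lower in 22RV1, against 58.8% of all genes, with a median of −0.14. In PC3 9 were higher, against 46.3% of all genes, with a median of 0.42. NR4A1, a nuclear receptor of this group, was 4.38 TPM and 10.7 TPM in PC3, and MYC was 192 TPM and 122 TPM there. In 22RV1 their log2 ratios were −0.18 and −0.20, and EGR1, a zinc finger factor, had the highest of the list among genes that reached 5 TPM, 0.17.

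The profile of the 10 genes over the 4 libraries was compared with that of 10000 protein-coding genes with at least 5 TPM in a library, as the Euclidean distance between log2(TPM + 1) values centred on each gene's mean. Closest to the median profile were MORC4, OTULIN, SMNDC1, SAP30L and CSNK2A1, at distances from 0.096 to 0.11. CSNK2A1, a catalytic subunit of casein kinase 2, was 68.2 and 53 TPM in 22RV1 and 53.7 and 72.2 TPM in PC3. MORC4 was 10.5 and 7.76 TPM in 22RV1 and 8.56 and 10.7 TPM in PC3. The members themselves lay further from their median profile, from 0.36 for ATF3 and 0.46 for TRIB3 to 2.04 for SESN2 and 2.33 for CEBPB, so with 4 libraries the median profile describes no single member closely.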

How the data were processed

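Total RNA of 22RV1 and PC3 cells was sequenced after Illumina TruSeq library preparation. The submitters' processing notes name CASAVA, HISAT2 and hg19, while the identifier that the files carry for DDX52 (ENSG00000278053) is listed in GENCODE 29 on GRCh38. The build behind the values is therefore unsure. Positions given here refer to GENCODE 29 or RefSeq and not to the deposited values. The authors deposited TPM per Ensembl gene, 1 column per library, and the counter, annotation and filters are not given in the sources used here. Columns were matched to samples by name.

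The members and gene lists were chosen with earlier results of these data known. All 220 list symbols were matched to identifiers. A gene was kept in a line if 1 of its libraries reached 1 TPM, and 1 TPM was added before logs. The text names the members, DDX52 and the markers KLK3, KLK2, HOXB13, VIM and S100A2. It also names the genes of lowest and highest log2 ratio per list and line among those reaching 5 TPM. The 5 protein-coding genes most like the members over the 4 libraries are named as well. HOXB13, NUPR1, the genes overlapping members and the motif searches were added after values were seen, as was the 1.5-fold limit. A marker of the cell line check is not reported here. Other pseudocounts, filters, scalings and omitted genes were tried. The ratio and 2-fold call step was tested on simulated data, in which only well expressed genes were changed, by more than 2-fold. It therefore says nothing about smaller changes or about weakly expressed members. Scripts ran in Python 3.11.15 with pandas 2.3.3, and figures were drawn with matplotlib 3.10.9.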

Additional observations from a re-analysis of the deposited data

Results flagged for a closer look

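Members and other genes given with values in the text are listed here if they had opposite directions in the 2 cell lines and passed the 1 TPM minimum in both. List medians of opposite sign are listed as well. Values are the log2 ratio in 22RV1 minus that in PC3, and with 1 library per condition none of these differences was tested. Among the 10 genes they were ATF4 (−0.58), ATF3 (−1.43), DDIT3 (−1.21), DDIT4 (−1.88), SESN2 (−0.99) and CHAC1 (−1.31).

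Among other genes of the pathway lists the differences were −1.40 for ASNS, −1.25 for MARS1, −0.93 for SLC7A1, −1.27 for STC2, −1.65 for HERPUD1, −1.12 for SEL1L, −0.40 for EIF2AK2, −1.09 for JUN, −1.30 for NR4A1 and −0.37 for GADD45A. The opposite sense, higher in 22RV1 and lower in PC3, was seen for CHAC2 (0.79) and TRIB1 (0.66). For genes chosen by their likeness to the members the difference was −0.68 for MORC4, −0.78 for OTULIN, −0.81 for SMNDC1, −0.66 for SAP30L and −0.78 for CSNK2A1, which follows from how they were chosen. VIM differed by −2.78, which is a larger value than that of any of the 10 genes.

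List medians of opposite sign differed by −0.86 for the bZIP factors and −1.16 for the feedback and effector genes among the members. They differed by −0.57 for the ATF4 metabolic targets, −0.53 for the other ATF4 and CHOP targets, −0.18 for the other bZIP factors, −0.56 for the immediate early genes, 0.22 for the p53 targets and −1.20 for the PC3 markers. Each median was taken over the genes tested in that line, so the medians of a list can cover different genes. Of the PC3 markers, 3 were tested in 22RV1 and 6 in PC3.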

How the results depend on the processing

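The 32 results were recomputed under a smaller number of alternative settings, which gave 236 values, and none changed sign. Of the 96 values for medians and counts, 79 stayed within 0.2 on the log2 scale or, for counts, within 1.5 times. Of the 140 for single genes 137 did. All 10 genes passed with no filter and with a 5 TPM filter, so these settings could change no value. Their values are counted among those that stayed. The log2 ratios of the 10 genes kept their sign under each alternative run, except that CEBPG in PC3, which was 0, ranged up to 0.12. Scaling to nuclear protein-coding genes moved the median of all genes in PC3 from −0.036 to 0.087, and on that scale ATF4 in PC3 was 0.31. The median difference between the lines was −0.79. It was −0.99 without ATF4 and ranged from −0.99 to −0.58 when 1 gene at a time was left out. The median log2 ratio of PC3 shCON to 22RV1 shCON was −0.29, was −0.0020 without ATF4 and ranged from −0.57 to −0.0020 without 1 gene at a time, so its size rests on single genes.

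The count at least 2-fold lower in 22RV1 went from 0 to 1 with a pseudocount of 0.1 TPM and with nuclear protein-coding scaling. The count at least 2-fold higher in PC3 went from 0 to 1 with that pseudocount, with that scaling, with mitochondrial genes and the 20 most abundant genes removed, and with centred ratios. The count at least 1.5-fold lower in 22RV1 was 2 in place of 4 with a pseudocount of 5 TPM and 6 with 0.1 TPM. In PC3 it was 0 in place of 1 with a pseudocount of 5 TPM, with both scalings and with centred ratios, so CEBPB in PC3 lies near that limit. CHAC1 in 22RV1 ranged from −1.21 to −0.55 and SESN2 in PC3 from 0.46 to 0.99 over the alternatives, the lower sizes with a pseudocount of 5 TPM.

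TPM keeps no depth, so counting error is unknown. No paired analysis was possible because a condition holds a single library, so no replicate numbers pair samples. A fit of 1 effect shared by both lines, with the line as a block, was not run.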
